A study of Mus musculus with 2 samples.

Results

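Caseins are the main proteins of mouse milk, and 5 genes encode them: Csn1s1, Csn2, Csn1s2a, Csn1s2b and Csn3. They were followed through every probe set of the array that the platform annotation assigns to one of these symbols alone, 11 probe sets among 45101. A probe set is a group of short probes that reads 1 stretch of a transcript, and bright and dim ones were all kept. Of the 11, there were 5 for Csn1s2a, 2 each for Csn2 and Csn3, and 1 each for Csn1s1 and Csn1s2b. The casein kinase genes, whose symbols begin alike, were not included.

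The arrays compared mammary epithelial cells of 2 genotypes on day 18 of pregnancy, shortly before birth. The first was the Cuzd1-null pool, from mice in which both copies of Cuzd1 were disrupted by homologous recombination in embryonic stem cells. The second was the heterozygous pool, from littermates that keep 1 intact copy, so the comparison array also carries the disrupted allele. Both groups were C57BL/6 after repeated backcrossing, and the sources used here do not give the age of the mice. Cells were freed from the inguinal glands with hyaluronidase and collagenase and washed, with no sort recorded. Per the labels, RNA of 5 mice went into each pool and each pool onto 1 array. As neither genotype has a replicate array, no test was run, and every difference below is one between these 2 pools.

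Caseins are made by the secretory cells of the alveoli and packed with calcium phosphate into micelles. Csn1s1, Csn2, Csn1s2a and Csn1s2b encode the calcium-sensitive caseins that fill the micelle, and Csn3 encodes kappa-casein, which coats and stabilises it. Prolactin drives casein transcription through JAK2 and STAT5, together with glucocorticoid receptor and C/EBP-beta, and casein RNA builds up through pregnancy. In the RefSeq gene table of assembly GRCm38.p6, the 5 genes lie together on chromosome 5 in the order Csn1s1, Csn2, Csn1s2a, Csn1s2b and Csn3, with Csn1s1 next to Csn2 and Csn1s2a next to Csn1s2b.

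The promoter sequences below are shown because casein transcription is known to depend on STAT5. They are the 250 bases before the annotated start of 3 of the genes, from RefSeq (GRCm38.p6), written 5′ to 3′ on the strand of the gene. Csn1s1 lies at chr5:87665958-87666207 on the plus strand, Csn2 at chr5:87699426-87699675 on the minus strand and Csn1s2a at chr5:87774200-87774449 on the plus strand. Capitals mark the STAT5-type motif TTCNNNGAA and the octamer ATGCAAAT, each searched on both strands.
Csn1s1: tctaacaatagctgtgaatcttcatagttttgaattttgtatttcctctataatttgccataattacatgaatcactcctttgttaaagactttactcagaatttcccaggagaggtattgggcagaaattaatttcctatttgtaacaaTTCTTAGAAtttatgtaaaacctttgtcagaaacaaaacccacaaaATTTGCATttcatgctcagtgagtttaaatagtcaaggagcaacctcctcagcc
Csn2: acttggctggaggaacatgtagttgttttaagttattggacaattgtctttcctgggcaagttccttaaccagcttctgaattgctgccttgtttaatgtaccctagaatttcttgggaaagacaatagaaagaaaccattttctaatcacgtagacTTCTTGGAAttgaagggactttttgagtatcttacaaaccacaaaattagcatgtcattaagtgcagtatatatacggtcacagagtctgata
Csn1s2a: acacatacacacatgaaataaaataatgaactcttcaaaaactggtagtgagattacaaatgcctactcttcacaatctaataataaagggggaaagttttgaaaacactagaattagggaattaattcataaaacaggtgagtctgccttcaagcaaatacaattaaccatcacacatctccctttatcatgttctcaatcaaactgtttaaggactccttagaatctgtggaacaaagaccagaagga

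The Csn1s1 window held 1 STAT5-type match, TTCTTAGAA, from 100 to 92 bases before the start. The Csn2 window held 1, TTCTTGGAA, from 93 to 85 bases before it. Csn1s1 also held the octamer, read on the opposite strand as ATTTGCAT, from 54 to 47 bases before the start. In the Csn1s2a window neither was found, which says only that these letters are not in it. Of 32851 promoter windows of the same length, 7.02% held the STAT5-type motif and 1.60% held the octamer. The TATA motif TATAAA, also searched on both strands and found in 12.4% of windows, had no match in any of the 3. A match describes the letters and not a bound site.

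The deposited values are MAS5 signals, a linear intensity per probe set. Signals near the bottom of an array consist largely of background. A floor was therefore set at the median signal of each array, 32.5 units on the null array and 34.2 units on the heterozygous array. Log2 ratios are null over heterozygous after flooring, and a probe set below the floor on both arrays has none. Signals of different probe sets are not read as levels of one transcript against another, because each set has its own response. Bright and dim describe the signal only. Among caseins, dim is used for sets with a mean signal under 10000 units, of which 4 lay above the floor on both arrays. It does not mean near the floor.

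All 10 casein probe sets above the floor read lower in the null pool as deposited, beside 12033 of the other 24250 above the floor. The casein probe sets fell into separate classes. The 6 with a mean signal over 10000 units had log2 ratios of -0.22 to -0.11. Of the 41 other genes whose brightest probe set was over that signal, 39 were also below 0. The 4 below that signal were all at least 2-fold lower, with log2 ratios of -3.55 to -1.11. Over all probe sets above the floor on at least 1 array, 1.19% were at least 2-fold lower (288 of 24260), and 0.965% were at least 2-fold higher, among them 0 casein probe sets. The median log2 ratio was -0.19 over the 10 casein probe sets, and 0.0031 over the other 24250 probe sets above the floor. In bulk RNA such as this, fewer secretory cells and less casein RNA per cell cannot be told apart.

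**Figure D1:**
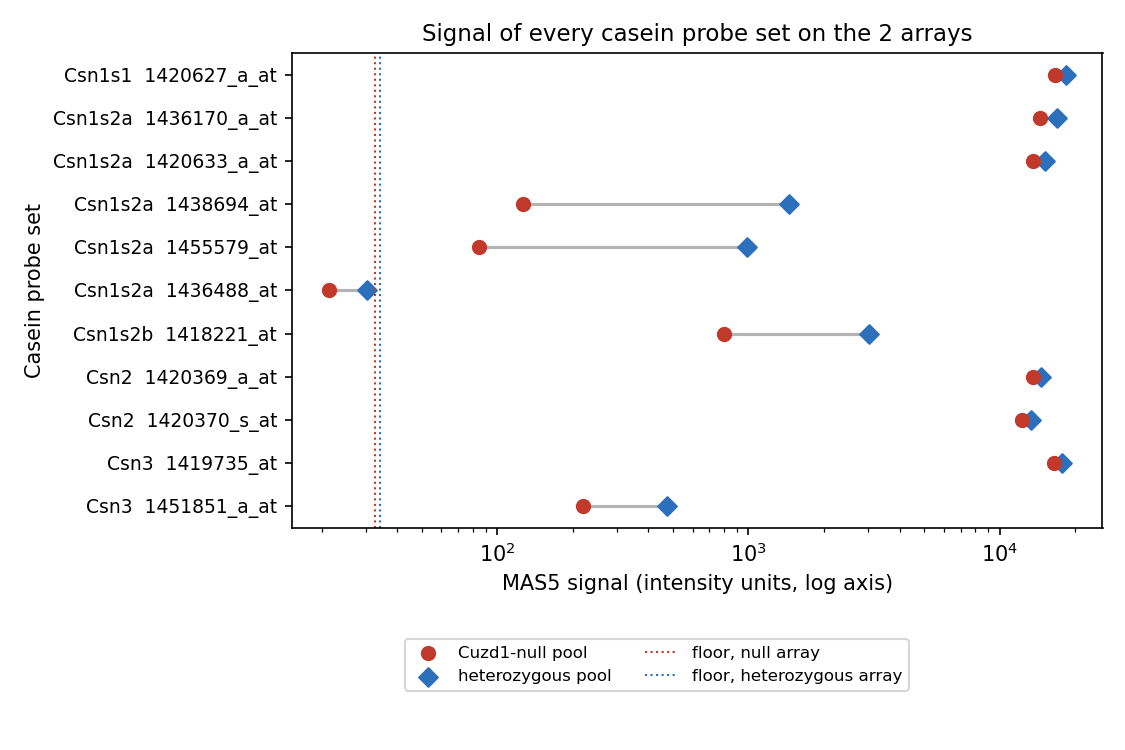
MAS5 signal (intensity units, log axis) of each of the 11 casein probe sets, with the Cuzd1-null pool as red circles, the heterozygous pool as blue diamonds and the floor of each array as a dotted line. The 6 bright probe sets sit close together on the 2 arrays, while 1438694_at, 1455579_at, 1418221_at and 1451851_a_at lie clearly lower in the null pool.

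Csn1s2a, called gamma-casein in older mouse nomenclature, showed both classes within 1 gene. Its brightest probe set, 1436170_a_at, read 14513 units in null cells and 16941 in heterozygous cells, a log2 ratio of -0.22. Its next, 1420633_a_at, read 13569 units in null and 15165 in heterozygous cells, a log2 ratio of -0.16. These correspond to signals 1.17-fold and 1.12-fold lower in the null pool.

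The 2 dimmer Csn1s2a probe sets above the floor read far lower in the null pool. Probe set 1438694_at had 126 units in null cells and 1448 in heterozygous cells, 11.5-fold lower (log2 ratio -3.52). Probe set 1455579_at had 84.7 units in null cells and 991 in heterozygous cells, 11.7-fold lower (log2 ratio -3.55). These were the second lowest and the lowest log2 ratio of all 20776 probe sets above the floor on both arrays. The null signal was 8.73% of the heterozygous signal at 1438694_at and 8.54% at 1455579_at. Among all probe sets of similar mean signal over the 2 arrays, log2 ratios had a robust SD of 0.24 and 0.27. This robust SD is the scaled median absolute deviation within 1 of 20 bins of mean signal. The bins that hold the null signals alone had 0.35 for 1438694_at and 0.43 for 1455579_at.

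The annotation gives 1455579_at and the brightest probe set, 1436170_a_at, the same source sequence. Their log2 ratios differed by -3.33 (dimmer minus brightest) in the same 2 pools. The suffix _a_at marks a set whose probes are shared by alternative transcripts of 1 gene, and a plain _at a set meant to be unique, so the sets need not read the same part of the transcript. The position of each set in the gene was not looked up here, since the files carry none. The remaining Csn1s2a probe set, 1436488_at, read 21.3 units in null and 30.4 units in heterozygous cells, below the floor on both arrays, and gives no ratio.

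Csn1s2b, the neighbour of Csn1s2a in the cluster and like it a calcium-sensitive casein, has 1 probe set. It read 800 units in null cells and 3011 in heterozygous cells, 3.76-fold lower (log2 ratio -1.91), with a robust SD of 0.19 at that signal. Among the 20776 probe sets above both floors it ranked 14 from the lowest ratio. By their brightest probe sets, 1.03% of the 11893 genes above the floor were at least 2-fold lower, and Csn1s2b was the single casein gene among them. No second probe set checks it.

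Csn3, the kappa-casein of the micelle surface, also gave different answers at its bright and dim probe sets. The bright 1419735_at read 16461 units in null and 17785 in heterozygous cells, a log2 ratio of -0.11. The dim 1451851_a_at read 219 units in null and 473 in heterozygous cells, 2.16-fold lower (log2 ratio -1.11, with a robust SD of 0.27 at that signal). Here the dimmer set carries the _a_at suffix and the brighter a plain _at, the reverse of Csn1s2a.

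The remaining caseins, Csn1s1 and Csn2, were measured only by bright probe sets. Csn1s1, the alpha-S1 casein, read 16665 units in null and 18316 in heterozygous cells, a log2 ratio of -0.14. Csn2, beta-casein, read 13592 units in null and 14669 in heterozygous cells with 1420369_a_at (log2 ratio -0.11). The second Csn2 set, 1420370_s_at, read 12329 units in null and 13370 in heterozygous cells (-0.12). The annotation gives both Csn2 sets the same source sequence, and unlike those of Csn1s2a their ratios differed by -0.01.

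**Figure D2:**
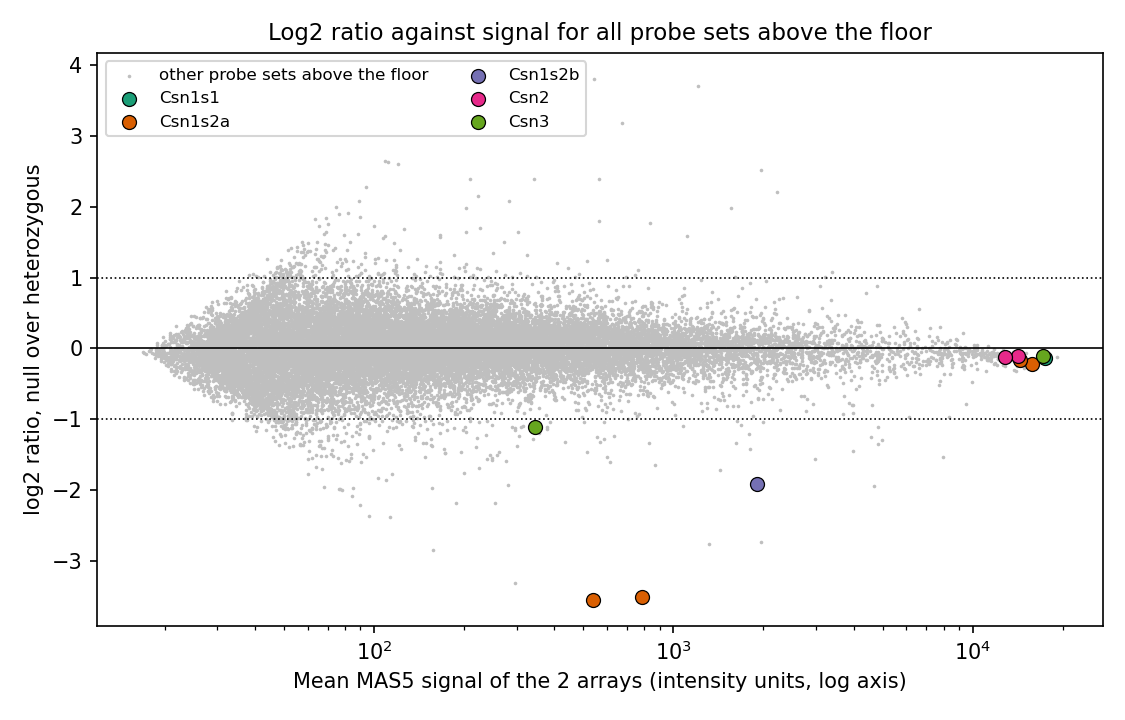
Log2 ratio of null over heterozygous against mean signal of the 2 arrays (log axis) for all probe sets above the floor on at least 1 array, with casein probe sets in colour and dotted lines at 2-fold. The 2 dim Csn1s2a points are the lowest on the plot, and the bright casein points overlap near the right edge with log2 ratios of -0.22 to -0.11.

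The bright casein probe sets lay in a range of signal where the ratios of all genes were close together. Of the 45 genes whose brightest probe set averaged over 10000 units, 43 had a log2 ratio below 0 as deposited. The 41 that are not caseins had a median of -0.13 with an SD of 0.08 across genes, and a range of -0.32 to 0.06. On the hybridization-control scale described below, 4 of these 41 were below 0. All 4 bright caseins lay inside that range, and Csn1s2a ranked 5 from the lowest of the 45. The robust SD over the whole top signal bin was 0.19. Whether the top of the measuring range narrows the ratios of bright probe sets was not tested, and scanner files with saturation marks were not analysed here.

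Other bright genes show how often a dimmer probe set departs from the brightest one. The comparison took genes whose brightest probe set averaged over 5000 units, and their probe sets that were above both floors and at most 1/5 as bright. This gave 73 probe sets of 46 genes. For the 70 that are not of caseins, the dimmer minus the brightest log2 ratio had a median of 0.03, quartiles of -0.33 and 0.33, and a range of -1.07 to 1.28. The Csn1s2a differences of -3.33 and -3.29 were the lowest of the 73 and lay outside that range. The Csn3 difference of -0.999 ranked 4, after -1.07 for a probe set of Fabp3, a fatty acid binding protein of the secretory epithelium. The Csn3 difference is therefore inside the range of other genes, and the sharp departure is that of Csn1s2a.

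**Figure D3:**
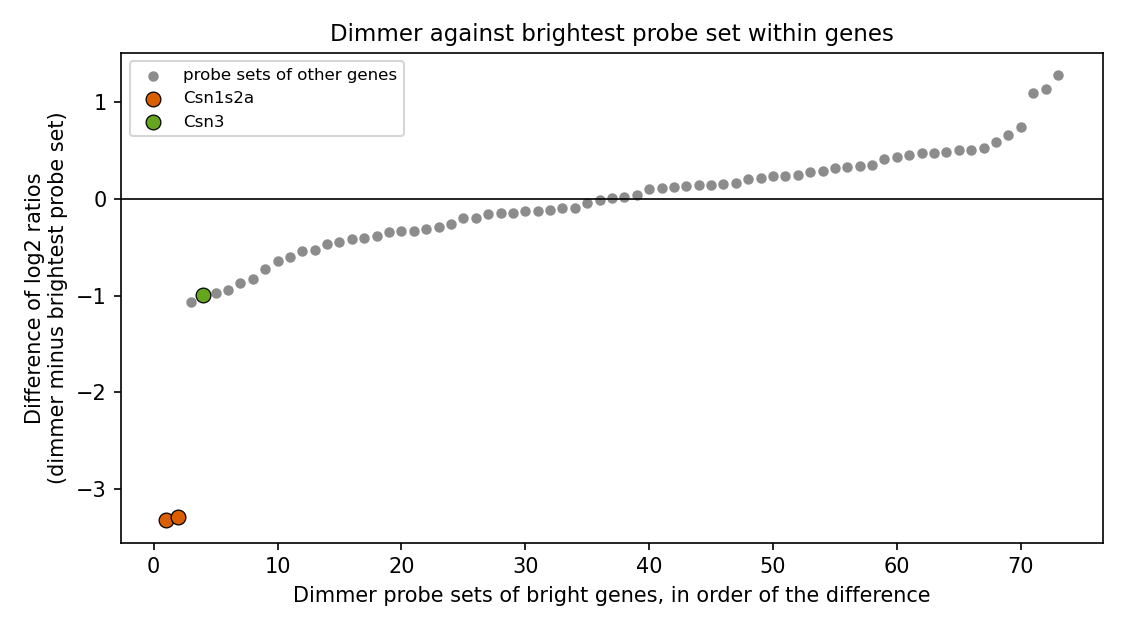
Difference of log2 ratios (dimmer minus brightest probe set of the same gene) for 73 dimmer probe sets of 46 bright genes, in ascending order, with Csn1s2a and Csn3 in colour. The 2 Csn1s2a sets lie at -3.33 and -3.29, while all others lie between -1.07 and 1.28.

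The direction at bright probe sets depended on how the arrays are scaled, and that at dim ones did not. As deposited, each array carries 1 global factor. The 18 probe sets for hybridization controls, which are usually spiked into every hybridization at fixed amounts, had a median of -0.22 (log2 ratio). The 27 for poly-A controls had a median of -0.30. Rescaling to the hybridization controls turned 5 of the 6 bright casein ratios above 0, with a range of -0.0036 to 0.11, and moved the median of all probe sets above both floors from 0.01 to 0.23. On the poly-A control scale all 6 bright casein ratios were above 0, at 0.08 to 0.19. The median of all probe sets above both floors was 0.31 on that scale. Quantile normalization gave -0.06 to 0.06, with 1 of 6 below 0, and subtracting a signal-dependent curve gave -0.12 to -0.0022. The 4 dim sets kept ratios of -3.59 to -0.81 under these 4 scalings. The dim Csn3 set came to -0.89 with hybridization controls and -0.81 with poly-A controls, so it was no longer 2-fold lower, while both Csn1s2a sets and Csn1s2b remained at least 2-fold lower under each.

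**Figure D4:**
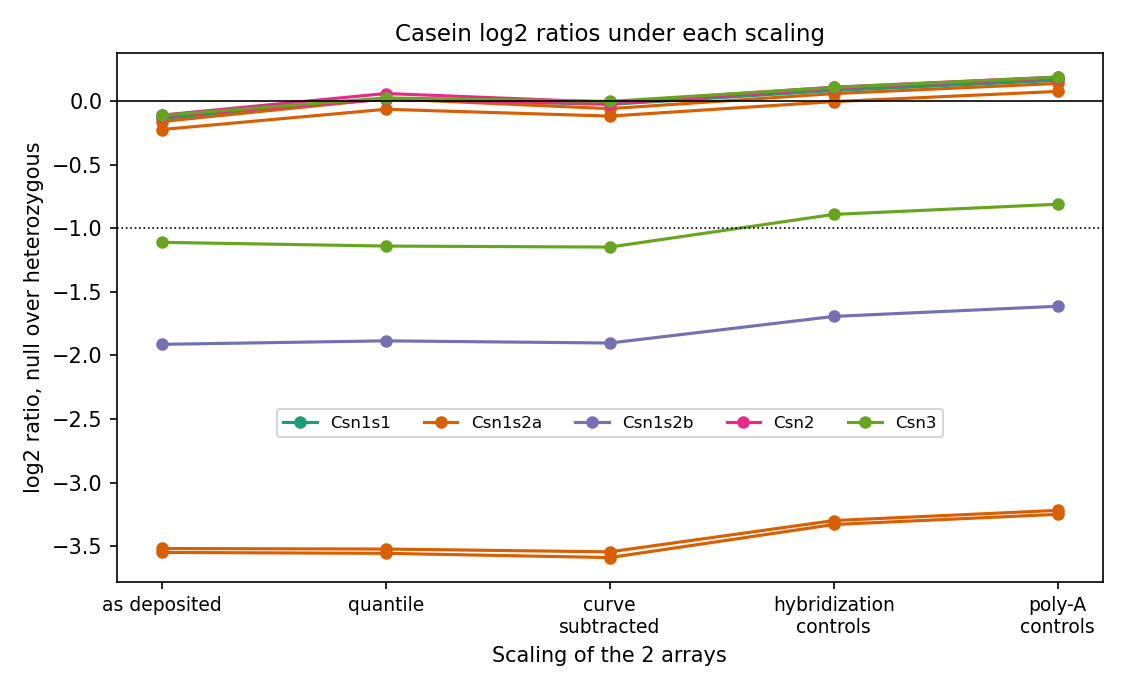
Log2 ratio of null over heterozygous for the 10 casein probe sets above the floor, as deposited and under 4 other scalings, with lines joining the same probe set and a dotted line at 2-fold lower. Of the 6 bright sets, 5 lie above 0 with hybridization controls and 6 with poly-A controls, whereas the 2 dim Csn1s2a sets stay between -3.59 and -3.22.

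Likeness to the lowest casein probe set was taken as the nearest log2 ratio, among probe sets of other genes with 1 symbol and above both floors. With only 2 arrays it rests on 1 ratio per probe set. A probe set not named from a single symbol, with a log2 ratio of -3.32, came nearer than any of these and is left out. Dnaja4, which assists Hsp70, read 38.6 units in null and 277 in heterozygous cells, 7.18-fold lower. The Hsp110 gene Hsph1 was 6.76-fold and 6.67-fold lower at 2 probe sets. Sema3f, a semaphorin, was 5.22-fold lower and Ccl20, a chemokine, 4.53-fold lower. None of these 5 probe sets came closer than 0.70 on the log2 scale to the Csn1s2a probe set 1455579_at.

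Other secreted milk proteins and fat globule genes read lower too, and by less than the dim casein sets. Of 14 listed genes, 12 had a probe set named here. As deposited, all 12 were below 0 (median log2 ratio -0.30), beside 5466 of all 11893 genes by their brightest probe sets. On the hybridization-control scale 7 of the 12 were below 0 (median -0.08), where the median of all probe sets above both floors was 0.23. On the poly-A control scale 6 were below 0 (median 0.0044), where that median was 0.31. Rescaling to controls shifts every ratio by the same amount. None of the 12 was 2-fold apart. Glycam1, a mucin-like milk protein, read 18300 units in null and 19898 in heterozygous cells, and Wfdc18, a small protein of the whey acidic protein family, 15116 in null and 16849 in heterozygous cells. Their log2 ratios were -0.12 and -0.16. The lowest of the list was lactoferrin, Ltf, the iron-binding antimicrobial protein, at 1263 units in null and 2439 in heterozygous cells (log2 ratio -0.95). Btn1a1, butyrophilin of the fat globule membrane, was the only one of the 12 with further probe sets above both floors. These 2 dim sets had -0.36 and -0.60, against -0.21 at the bright one.

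Genes that control casein transcription lay on both sides of 0. All 13 listed were above the floor on at least 1 array, 8 below 0 and 5 above, with a median log2 ratio of -0.01 and none 2-fold apart. Socs1, a feedback inhibitor of JAK kinases, had a null signal under the floor and was at least 1.42-fold lower. On the hybridization-control scale the list median was 0.21 with 3 below 0, beside 0.23 for all probe sets above both floors. Elf5, which encodes an ETS factor needed for alveolar cells, read 7385 units in null and 8174 in heterozygous cells (log2 ratio -0.15). Cebpb, which encodes C/EBP-beta, read 3512 units in null and 3222 in heterozygous cells (0.12). The receptor of glucocorticoids, Nr3c1, had a ratio of 0.34, and the kinase gene Jak2 had -0.04. Stat5a and Stat5b, whose proteins bind the STAT5-type motif TTCNNNGAA, had -0.04 and 0.26. Across all 11893 genes, the median was 0.03 as deposited.

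Genes that phosphorylate or glycosylate caseins or supply the micelle with minerals had 1 member past 2-fold. Of 9 listed, all above the floor on at least 1 array, 8 were below 0 as deposited (median log2 ratio -0.25). That median became -0.03 on the hybridization-control scale, with 5 below 0, and 0.05 on the poly-A control scale, with 4 below 0. On those scales all probe sets above both floors had medians of 0.23 and 0.31, in that order. The 5466 of 11893 genes below 0 are the background of the deposited count. Fam20c, the Golgi kinase that phosphorylates caseins, read 1257 units in null and 1446 in heterozygous cells (-0.20). Its pseudokinase partner Fam20a read 1904 units in null and 2453 in heterozygous cells (-0.37), and the zinc transporter gene Slc30a4 had a ratio of -0.11. Atp2b2, the apical calcium pump, was the 1 member at least 2-fold lower, beside 1.03% of all genes. It read 31.3 units in null cells, below the floor, and 138 in heterozygous cells, at least 4.24-fold lower. Slc34a2, a phosphate transporter, read 515 units in null and 996 in heterozygous cells (-0.95).

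The neighbours of the casein cluster did not share one direction. Of the 15 genes with a probe set on each side in the RefSeq order, 10 of 30 were above the floor, 5 below 0 and 5 above, with a median log2 ratio of -0.04. None was 2-fold lower. The brightest, Grsf1, an RNA-binding protein gene, and Ythdc1, a reader of methylated RNA, had ratios of 0.03 and 0.02. Jchain, which joins immunoglobulins into polymers, was the 1 neighbour at least 2-fold higher (1.12% of all genes were), at 458 units in null and 108 in heterozygous cells (4.25-fold). The 2 genes with a probe set that lie between the caseins, Prr27 and Odam, were below the floor on both arrays.

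Marker genes of the cells in the pools were read beside the caseins, on the deposited scale. The 5 luminal markers (Krt8, Krt18, Krt19, Epcam, Cdh1) had a median log2 ratio of 0.22, with 1 below 0, and a summed signal of 31387 units in null and 28064 in heterozygous cells. Those of the myoepithelium (5 of 5 above the floor) had a median of -0.11, with sums of 15955 in null and 17584 in heterozygous cells. Their median was 0.11 on the hybridization-control scale and 0.19 on the poly-A control scale. On those scales all probe sets above both floors had medians of 0.23 and 0.31. A sum is weighted towards the brightest probe sets of its list. Fibroblast, endothelial and macrophage markers, all above the floor, had higher summed signals in the null pool. The sums were 10085 in null and 6632 in heterozygous cells for the 5 fibroblast markers. They were 1008 and 716 for the 4 endothelial markers, and 4481 and 3388 for the 4 macrophage markers. Among the macrophage markers 1, Adgre1, read lower in null cells (log2 ratio -0.09). Col1a2 (3.02-fold) and Pdgfra (3.05-fold) of the fibroblast list and Vwf (2.49-fold) of the endothelial list were at least 2-fold higher, beside 1.12% of all genes. B and plasma cell markers (4 of 4 above the floor on at least 1 array) summed to 2803 in null and 327 in heterozygous cells. Ighm made up most of the null sum, at 2252 in null and 172 in heterozygous cells (13.1-fold higher), and Jchain was 4.25-fold higher. Cd79a and Ms4a1, under the floor in heterozygous cells, were at least 1.25-fold and 1.49-fold higher. Of 4 adipocyte markers, 2 were above the floor, and summed to 6199 in null and 6896 in heterozygous cells. Fabp4 made up most of that sum, at 6169 in null and 6829 in heterozygous cells. The adiponectin gene Adipoq, under the floor in null cells, was at least 2.05-fold lower, beside 1.03% of all genes. The robust SD at the signal of Adipoq was 0.53. On the hybridization-control scale 1 of these 2 adipocyte markers was below 0, and the lower ratio was -0.81, short of 2-fold. No list was at 0 on either array, and the part of these cells in the casein differences was not tested. As a check of RNA integrity, the actin control probe sets gave a 3′ over 5′ ratio of 1.24 in null and 1.27 in heterozygous RNA. Cuzd1 itself read near the floor on both arrays (34.0 units in null and 32.4 in heterozygous cells), so its signal cannot check the genotype labels, which are used as given.

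**Figure D5:**
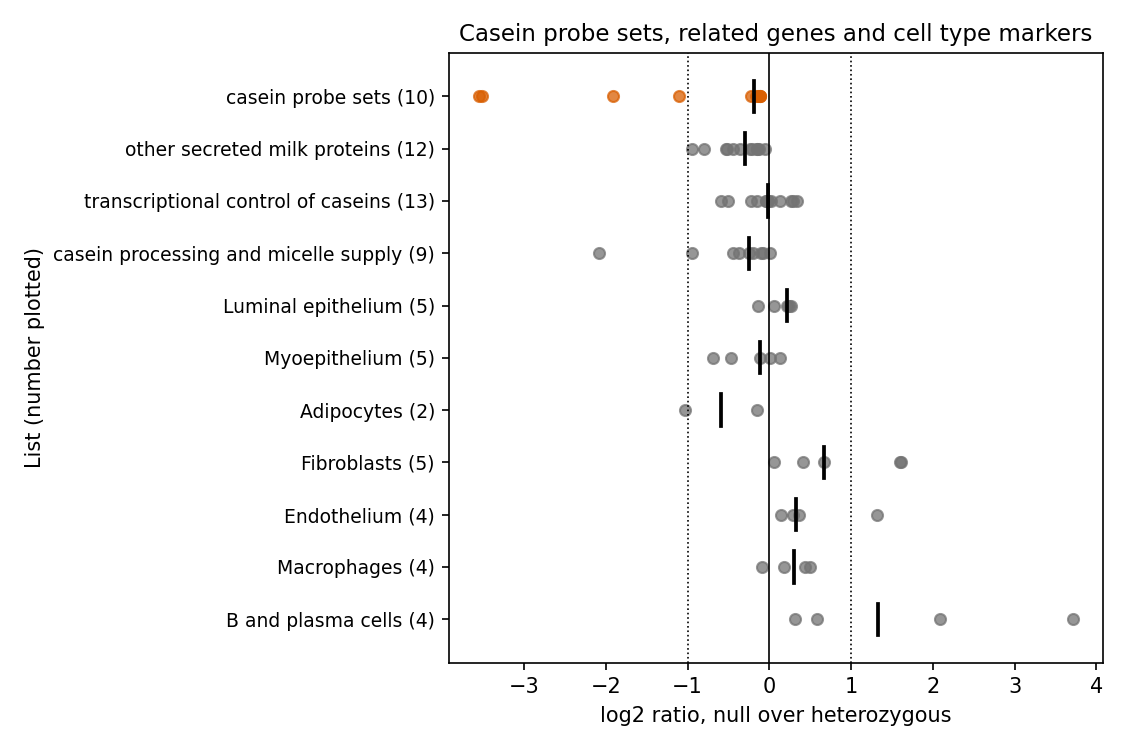
Log2 ratio of null over heterozygous for the 10 casein probe sets above the floor (orange) and, by brightest probe set, for related gene lists and cell type markers (grey), with the median of each row as a black bar and dotted lines at 2-fold. The casein row reaches -3.55, the luminal markers lie between -0.13 and 0.26, and the B and plasma cell markers reach 3.71.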

How the data were processed

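For each probe set the authors deposited a linear signal intensity. Per the submitters' processing notes, it was computed by MAS5 with the Affymetrix Expression Console (version 1). Leaving out the top and bottom 2% of values, both arrays averaged 149.952 units. Precision is limited by there being 2 arrays. Symbols came from the platform annotation, updated through the RefSeq table, and 34945 non-control probe sets had 1 symbol. Each array was floored at its median over 45037 non-control probe sets, and log2 ratios were taken with pandas 2.3.3 and numpy 2.4.6. A gene's brightest probe set is that with the highest mean signal. With 1 array per genotype, 2-fold is a rule of size and no test was run. All casein probe sets were named. From each list of related genes, the 2 brightest and any member at least 2-fold apart were named. Of the cell type markers, values were given for any member at least 2-fold apart. Col1a2, Pdgfra, Vwf, Ighm and Adipoq among these markers were chosen after their values were seen. So were other genes (Ltf, Btn1a1, Nr3c1, Socs1, Jak2, Stat5a, Stat5b, Fam20c, Slc34a2, Fabp4, Adgre1, Cd79a, Ms4a1, and Fabp3 from no list). Likeness took the 5 nearest ratios. Members and lists were chosen with earlier results of these data known. The ratio and the spread were tested on simulated data. The simulation used 1 noise level at every signal and planted changes only in probe sets well above the floor in heterozygous cells. It therefore did not cover the wider spread seen at dim signals. Alternatives were other scalings (2 sets of spiked controls, quantile, and a lowess curve with statsmodels 0.14.6), other floors, and other ways to represent a gene. Trf and Spp1 were not analysed here.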

Additional observations from a re-analysis of the deposited data

How the results depend on the processing

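The count of casein probe sets at least 2-fold lower was 4 as deposited and 3 or 4 under each alternative scaling and floor and with only probe sets above both floors. With hybridization controls the brightest probe sets had log2 ratios of 0.083 (Csn1s1), -0.0036 (Csn1s2a), -1.69 (Csn1s2b), 0.11 (Csn2) and 0.11 (Csn3), and the median over casein probe sets was 0.028. With poly-A controls they were 0.16, 0.076, -1.61, 0.19 and 0.19 in the same order, and the median was 0.11. All probe sets above both floors had a median of 0.23 with hybridization controls and 0.31 with poly-A controls. Taking the median over a gene's probe sets in place of the brightest gave -1.87 for Csn1s2a and -0.61 for Csn3, because their dim sets then count, whereas summing all signals changed no gene by more than the spread among probe sets of similar signal. Quantile normalization, a subtracted curve, a floor at the 25th percentile and no floor moved no casein value by more than that spread. A floor at the 75th percentile lifts dim null signals, and gave -3.28 for 1438694_at and -2.73 for 1455579_at. No paired analysis was possible because each genotype has 1 array. With no replicate, differences between mice or between preparations cannot be told apart from genotype.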
